A study of Mus musculus with 121 samples.

Results

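Cyb5d2, Tyw3, Tagap1, Unc119b and Clec4d are 5 mouse genes whose RNA was higher within hours of adding auxin to erythroid cells in which the transcription factor YY1 can be destroyed. They were chosen by their measured gains after 4 h of auxin, which were among the largest, so their 4 h values are given as a description and support nothing. They are 5 of 55351 genes listed in the RNA-seq time series, and each passed the filter on low counts in the time series (15157 genes tested), in a second RNA-seq table of untreated lines (10892 tested) and in nascent RNA (11218 tested). In nascent RNA each of them was higher at 4 h. In total RNA the description as an early gain went least with Clec4d, whose gain at 4 h was smaller than that of 1615 of the other tested genes.

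The cells were G1E-ER4, a mouse erythroid progenitor line derived from embryonic stem cells that lacks functional GATA1 and carries a hormone-activated form of it. The groups used here were YY1-AID subline cells before auxin and after 4, 24 and 48 h of auxin (RNA-seq, 3 libraries each). For TT-seq they were YY1-AID subline cells after 4 h of auxin and untreated (3 libraries each). The untreated lines were subline 3 (a YY1-AID clone), the YY1-AID subline and parental cells (RNA-seq, 2 libraries each). Sample titles name asynchronous culture for the time series and TT-seq, and not for the untreated lines. In both YY1-AID lines YY1 carries an auxin-inducible degron, a tag that directs the protein to breakdown once auxin is present. TT-seq reads the RNA made while cells take up 4-thiouridine (500 µM for 5 min here), and so samples transcription at that moment. Parental cells treated with auxin are not analysed here, so effects of auxin itself and of YY1 loss cannot be told apart. The labels do not say whether replicates came from separate cultures, so p-values measure the spread between these libraries, which may be technical.

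YY1 is a zinc finger protein that binds sites around a short core, ATGGC, on either strand and often just downstream of a transcription start, and it is known both as an activator and as a repressor. The 5 genes share no pathway. Cyb5d2 encodes neuferricin, a haem-binding protein with a cytochrome b5-like domain, and Tyw3 an enzyme in the synthesis of wybutosine, a modified base of phenylalanine tRNA. Tagap1 encodes a relative of Tagap, a protein named for T cell activation. Unc119b encodes a chaperone that shields the lipid of myristoylated proteins and delivers them to cilia. Clec4d encodes a C-type lectin receptor of myeloid cells that recognises mycobacterial glycolipid and pairs with its neighbour Clec4e (Mincle).

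The promoter windows are shown because the genes' starts are where a factor with a core of ATGGC would be sought, and because they differ in this respect. Each runs from 250 bases before to 50 bases after the annotated start, 5′ to 3′ on the gene's strand, from RefSeq on GRCm38.p6. Capitals mark every match, on either strand, to the extended YY1 consensus (its letters stand in capitals near the end of the Tagap1 window), to the shorter AANATGGC or to the core ATGGC. The 3 patterns overlap, since each longer one contains the shorter ones. The windows lie at chr11:72795790-72796089 (minus strand) for Cyb5d2, chr3:154597049-154597348 (minus) for Tyw3, chr17:6961107-6961406 (minus) for Tagap1, chr5:115134926-115135225 (minus) for Unc119b and chr6:123261857-123262156 (plus) for Clec4d.
Cyb5d2: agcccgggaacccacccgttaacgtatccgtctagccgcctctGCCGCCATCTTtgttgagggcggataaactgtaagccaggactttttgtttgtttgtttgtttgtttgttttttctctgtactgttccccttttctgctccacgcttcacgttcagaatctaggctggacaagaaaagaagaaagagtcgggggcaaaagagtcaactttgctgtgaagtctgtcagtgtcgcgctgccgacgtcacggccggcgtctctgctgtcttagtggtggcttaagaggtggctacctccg
Tyw3: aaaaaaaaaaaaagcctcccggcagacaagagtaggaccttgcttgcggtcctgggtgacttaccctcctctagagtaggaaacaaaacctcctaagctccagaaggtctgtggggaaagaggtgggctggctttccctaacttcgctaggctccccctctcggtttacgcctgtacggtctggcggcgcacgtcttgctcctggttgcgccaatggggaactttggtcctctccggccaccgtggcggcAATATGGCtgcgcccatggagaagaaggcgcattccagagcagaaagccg
Tagap1: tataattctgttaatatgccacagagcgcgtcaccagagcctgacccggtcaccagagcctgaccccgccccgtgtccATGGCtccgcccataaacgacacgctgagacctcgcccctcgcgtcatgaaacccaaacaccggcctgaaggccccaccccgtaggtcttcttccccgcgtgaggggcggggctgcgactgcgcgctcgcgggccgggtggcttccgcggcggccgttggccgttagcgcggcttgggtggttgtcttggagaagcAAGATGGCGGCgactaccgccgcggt
Unc119b: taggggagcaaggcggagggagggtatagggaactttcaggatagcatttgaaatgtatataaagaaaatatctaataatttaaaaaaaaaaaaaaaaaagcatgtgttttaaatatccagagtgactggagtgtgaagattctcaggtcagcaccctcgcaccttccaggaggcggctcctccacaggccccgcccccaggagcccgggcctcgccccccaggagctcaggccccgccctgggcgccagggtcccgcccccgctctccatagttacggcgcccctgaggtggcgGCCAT
Clec4d: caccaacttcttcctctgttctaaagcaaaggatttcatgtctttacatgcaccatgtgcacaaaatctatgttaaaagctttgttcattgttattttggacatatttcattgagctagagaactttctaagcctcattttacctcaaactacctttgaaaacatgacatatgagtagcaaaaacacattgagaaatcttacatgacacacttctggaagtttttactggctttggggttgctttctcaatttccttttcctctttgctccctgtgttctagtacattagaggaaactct

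The extended consensus stood in 2 of the 5 windows, against 208 of 32851 windows in the RefSeq table (0.633%). Tagap1 held it on its own strand at bases 25 to 35 after the start, and Cyb5d2 on the opposite strand at bases -207 to -197. Tyw3 held AANATGGC on its own strand at bases 1 to 8, at the very start of the transcript, which brought this pattern to 3 of 5 windows against 6.05% of the table. Unc119b held the core alone, on the opposite strand at bases 46 to 50, so that 4 of 5 windows held ATGGC against 40.5% of the table. The Clec4d window held none of the 3 patterns. These are matches of letters and were not set beside binding here.

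The YY1 fusion is removed as protein, so the level of its own mRNA does not check the labels. Yy1 RNA did not pass at 4 h (log2 fold change 0.11 ± 0.09, standard error, adjusted p = 0.516, edgeR quasi-likelihood test). The libraries held 25.1 to 26.2 M counts in the time series, 35.2 to 44.9 M in the untreated lines and 30.2 to 53.5 M in TT-seq. Levels below are CPM (counts scaled to a common library size, here after TMM normalisation), and they are compared within a gene and not between genes, since they are not divided by length. Erythroid markers summed to 4450 to 4910 CPM at 0 h, 4130 to 4450 at 4 h, 3860 to 3920 at 24 h and 4720 to 5620 at 48 h, while B cell markers did not exceed 0.149. Megakaryocyte markers summed to 37.8 to 52.0 CPM at 0 h, 40.4 to 50.5 at 4 h, 102 to 142 at 24 h and 210 to 249 at 48 h, and mast cell markers to 36.1 to 59.5, 39.4 to 58.9, 58.8 to 85.7 and 62.9 to 75.9 at the same times. The part of these shifts in the later values of the 5 genes was not tested. In bulk RNA, fewer cells of a type and less RNA per cell cannot be told apart.

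Cyb5d2 was the clearest early gain. Its 3 libraries had 7.38, 7.43 and 7.63 CPM at 0 h, and 26.1, 26.9 and 27.2 CPM at 4 h. They had 29.0, 33.1 and 29.7 CPM at 24 h, and 33.6, 32.5 and 34.4 CPM at 48 h. Every auxin library lay above every 0 h library, and the libraries of 0 h and of 4 h each fell within a narrow band. The log2 fold change against 0 h was 1.84 ± 0.08 (standard error, 3.57-fold) at 4 h, 2.03 ± 0.08 at 24 h and 2.16 ± 0.08 at 48 h. Thus 90.4% of the log2 gain seen at 24 h was present at 4 h. Of the tested genes, 69 had a larger 4 h estimate, but none of these both passed the threshold and averaged 3 or more in log2 CPM.

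Tyw3 was at about double its 0 h level from 4 h on. It had 9.37, 7.14 and 8.69 CPM at 0 h, and 17.4, 14.7 and 16.6 CPM at 4 h. At 24 h it had 16.2, 18.3 and 14.6 CPM, and at 48 h 20.8, 20.5 and 16.9 CPM. The auxin libraries overlapped among themselves but stood above the 0 h libraries. Against 0 h the log2 fold change was 0.95 ± 0.13 (1.93-fold) at 4 h, 0.96 ± 0.13 at 24 h and 1.21 ± 0.13 at 48 h, so that the 4 h gain made up 98.7% of the 24 h gain.

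Tagap1 followed the same course with more spread. It had 10.9, 10.6 and 10.8 CPM at 0 h, and 23.8, 17.7 and 18.8 CPM at 4 h. It had 19.0, 18.9 and 16.7 CPM at 24 h, and 21.7, 21.3 and 22.9 CPM at 48 h. One 4 h library was above the other 4 h libraries, and the 4 h range enclosed most values of the later times. The log2 fold change against 0 h was 0.90 ± 0.11 (1.86-fold) at 4 h, 0.76 ± 0.11 at 24 h and 1.03 ± 0.11 at 48 h. The 4 h estimate was 118% of the 24 h one.

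Unc119b climbed in steps. It had 33.1, 37.4 and 37.5 CPM at 0 h, and 60.6, 60.9 and 63.4 CPM at 4 h. At 24 h it had 88.9, 92.0 and 87.6 CPM, and at 48 h 102, 109 and 88.6 CPM. The libraries of 0, 4 and 24 h formed separate bands, and those of 48 h overlapped with those of 24 h. The log2 fold change against 0 h was 0.78 ± 0.08 (1.71-fold) at 4 h, 1.31 ± 0.08 at 24 h and 1.47 ± 0.08 at 48 h. Its 4 h gain was 59.0% of its 24 h gain.

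Clec4d was late in total RNA. It had 12.6, 12.7 and 10.6 CPM at 0 h, and 14.0, 17.8 and 16.0 CPM at 4 h. It had 55.7, 45.2 and 50.3 CPM at 24 h, and 47.5, 47.5 and 43.8 CPM at 48 h. The 4 h libraries stood above those of 0 h by a small margin, and those of 24 and 48 h far above both. The log2 fold change against 0 h was 0.41 ± 0.11 (1.33-fold) at 4 h, 2.07 ± 0.11 at 24 h and 1.95 ± 0.11 at 48 h. The 4 h gain was 19.8% of the 24 h gain, the smallest share among the 5 genes.

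**Figure D1:**
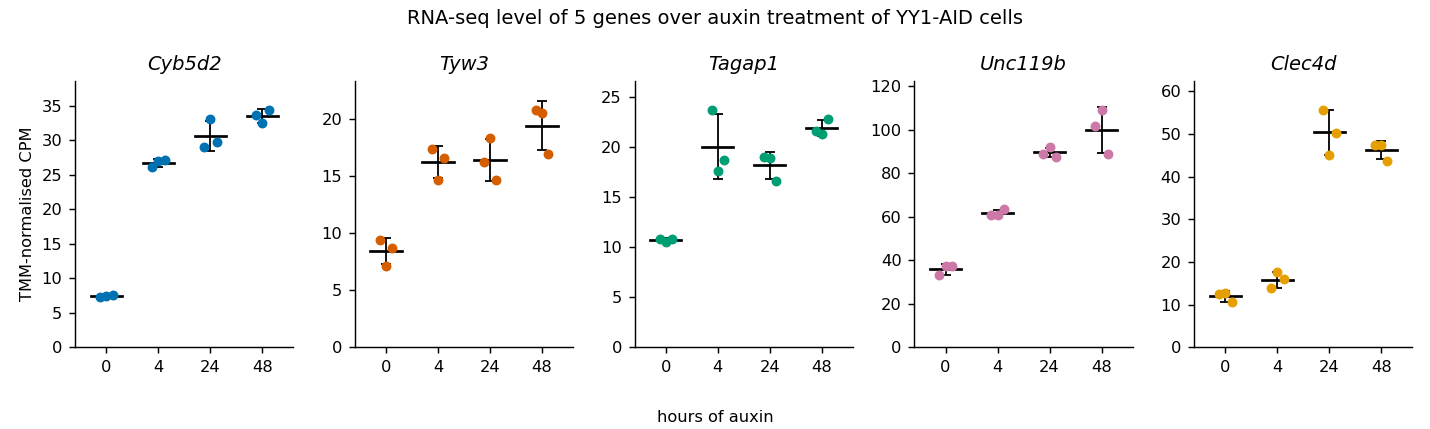
RNA-seq level (TMM-normalised CPM, linear axis from 0) of the 5 genes at 0, 4, 24 and 48 h of auxin, with points for libraries, long bars for the mean and whiskers for the SD (n = 3). Cyb5d2 reached 26.1 to 27.2 CPM at 4 h, whereas Clec4d was at 14.0 to 17.8 CPM at 4 h and at 45.2 to 55.7 CPM at 24 h.

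In the 4 h comparison 3.14% of tested genes passed as higher and 4.14% as lower, and the libraries of the 2 times did not overlap, with 4 h higher, for 13.5% of genes and for 5 of the 5 genes described here. Since this contrast chose the genes, nothing is read from that count. At 24 h 21.5% of genes passed as higher, 21.5% passed as lower and 27.2% had libraries above those of 0 h without overlap, and at 48 h these shares were 24.9%, 24.6% and 29.2%, again with the 5 genes among those that did not overlap. The 4, 24 and 48 h comparisons share the 0 h libraries and so are not independent of one another.

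The comparison of 48 h with 24 h contrasts neither the 0 h nor the 4 h libraries and was tested, although these libraries entered the same fit and so its filter, scaling and estimate of spread. With the 24 and 48 h libraries alone none of the 5 genes passed either (adjusted p from 0.143 to 0.553). None of the 5 genes passed, where 3.03% of genes passed as higher and 2.84% as lower. Tagap1 averaged 22.0 ± 0.83 CPM at 48 h and 18.2 ± 1.33 CPM at 24 h (SD, n = 3 each), without overlap, as for 11.7% of all genes tested (log2 fold change 0.27 ± 0.11, adjusted p = 0.169). The estimates were 0.25 ± 0.12 for Tyw3 (adjusted p = 0.293), 0.16 ± 0.08 for Unc119b (adjusted p = 0.274) and 0.13 ± 0.07 for Cyb5d2 (adjusted p = 0.336). Clec4d had 46.2 ± 2.14 CPM at 48 h and 50.4 ± 5.29 CPM at 24 h, a log2 fold change of -0.12 ± 0.10 (adjusted p = 0.55). These p-values do not show that the levels of the 2 times were alike.

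Nascent RNA gave another order among the 5 genes. Cyb5d2 had 25.5, 27.2 and 30.4 CPM after 4 h of auxin, against 8.43, 9.14 and 8.37 CPM in untreated cells. Clec4d had 21.0, 23.9 and 21.6 CPM after auxin, against 8.90, 8.02 and 7.96 CPM in untreated cells. In both genes the lowest auxin library was above 2 times the highest untreated one.

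Unc119b had 17.1, 13.9 and 18.5 CPM in nascent RNA after auxin, against 7.77, 6.08 and 8.19 CPM in untreated cells. Tyw3 had 19.8, 19.2 and 20.6 CPM after auxin, against 9.30, 9.89 and 12.6 CPM in untreated cells. Neither gene's groups overlapped. Tagap1 had 7.41, 5.66 and 7.44 CPM after auxin, against 5.33, 4.56 and 3.96 CPM in untreated cells, so that the lowest auxin library was close to the highest untreated one.

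**Figure D2:**
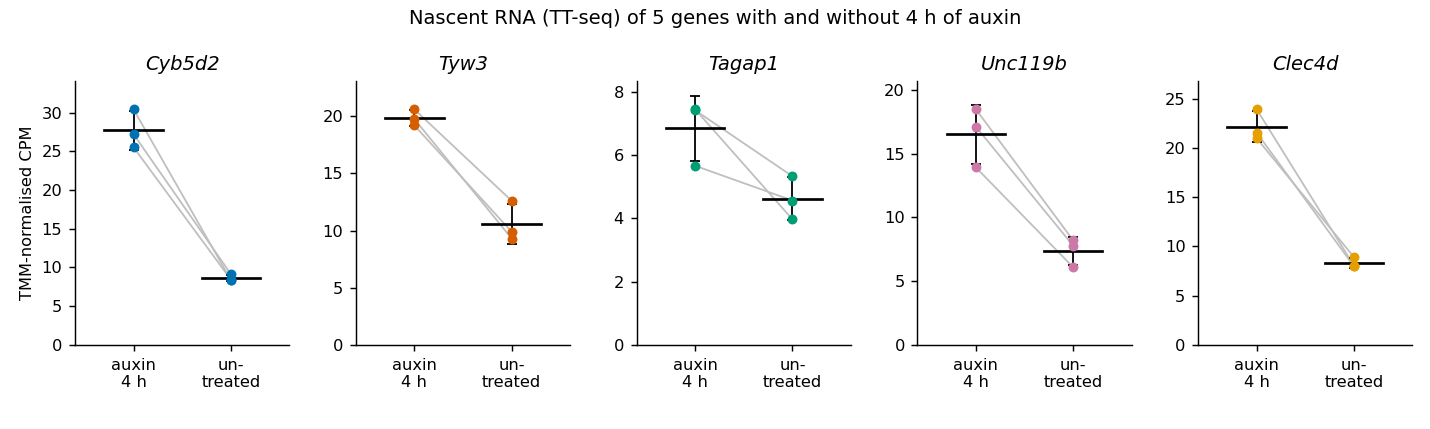
Nascent RNA (TT-seq, TMM-normalised CPM, linear axis from 0) of the 5 genes after 4 h of auxin and in untreated cells, with points for libraries, grey lines joining libraries of the same replicate number, long bars for the mean and whiskers for the SD (n = 3). Every line falls toward the untreated side, and for Tagap1 the groups lie closest (5.66 CPM in the lowest auxin library, 5.33 CPM in the highest untreated one).

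The nascent log2 fold change was 1.68 ± 0.11 for Cyb5d2, 1.42 ± 0.11 for Clec4d, 1.17 ± 0.16 for Unc119b, 0.90 ± 0.13 for Tyw3 and 0.56 ± 0.17 for Tagap1. Within replicate numbers 1, 2 and 3, nascent Unc119b gained 1.13, 1.19 and 1.17 on the log2 scale. Tyw3 gained 1.08, 0.95 and 0.71, and Clec4d 1.23, 1.57 and 1.43. The differences between these genes were not tested. Among tested genes, 15 had a larger estimate than Cyb5d2, 25 than Clec4d, 61 than Unc119b, 137 than Tyw3 and 503 than Tagap1. The groups did not overlap, with auxin higher, for 13.9% of all genes and for 5 of the 5 genes described here, which follows from their choice. In this comparison 2.11% of genes passed as higher and 7.09% as lower.

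Set side by side for the same 4 h of auxin, nascent and total RNA gave similar sizes for Cyb5d2 and Tyw3 (nascent minus total log2 fold change -0.16 and -0.04) and a somewhat smaller nascent value for Tagap1 (-0.34). For Unc119b the nascent value was larger by 0.40 and for Clec4d by 1.01. Clec4d therefore ranked near the top in nascent RNA at a time when its total RNA stood 1.33-fold above 0 h. The assays have separate tables and libraries, and these differences between assays were not tested.

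**Figure D3:**
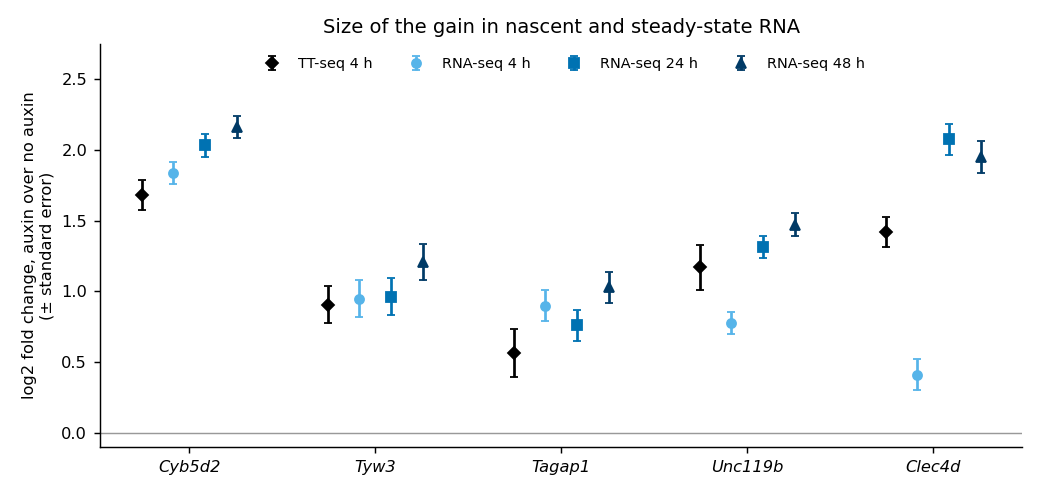
Log2 fold changes (with standard errors) of the 5 genes for nascent RNA after 4 h of auxin over untreated cells and for total RNA after 4, 24 and 48 h over 0 h. For Clec4d the nascent value (1.42) lies well above the 4 h RNA-seq value (0.41) and below the 24 h one (2.07), while for Cyb5d2 and Tyw3 the nascent and 4 h RNA-seq values lie close together.

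Clec4d is a myeloid gene, so myeloid markers stand beside it. Their summed level was 33.1 to 35.2 CPM at 0 h, 27.2 to 35.4 at 4 h, 31.0 to 36.1 at 24 h and 39.5 to 42.5 at 48 h, with 4, 4, 4 and 3 of 10 markers at 0 at these times. Nearly all of it was Spi1, a transcription factor that erythroid progenitors also express, at 33.8 ± 1.23 CPM at 0 h, 29.3 ± 4.65 at 4 h, 32.1 ± 2.40 at 24 h and 38.6 ± 1.29 at 48 h (SD, n = 3). Cd14, Cebpa and S100a8 were at 0 in the 12 libraries of the time series, and Itgam, a myeloid integrin, had at most 4 counts in a library. Csf1r, a macrophage growth factor receptor, was at 0.20 ± 0.12 CPM at 0 h, 0.12 ± 0.07 at 4 h, 0.65 ± 0.19 at 24 h and 0.64 ± 0.16 at 48 h, and rose against 0 h at 24 h (log2 fold change 1.65 ± 0.49, adjusted p = 0.0153) and at 48 h (1.62 ± 0.49, adjusted p = 0.0143). Lyz2, a lysozyme of myeloid cells, was at 0.30 ± 0.10 CPM at 0 h, 0.55 ± 0.23 at 24 h and 1.31 ± 0.44 at 48 h, and rose at 48 h (2.11 ± 0.41, adjusted p = 0.000794). So 2 markers, both at low levels, were higher at late times, as Clec4d was. Their part in the Clec4d values was not tested.

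Tagap1 carries the name of T cell activation, so T and NK cell markers stand beside it. They summed to 9.07 to 9.75 CPM at 0 h, 5.61 to 8.02 at 4 h, 2.90 to 5.23 at 24 h and 2.2 to 2.98 at 48 h, and Cd3e and Cd4 were at 0 in every library of the time series. Most of the sum was the kinase Lck, at 5.10 CPM at 4 h and 8.28 CPM at 0 h (adjusted p = 0.0923). Cd3g, a subunit of the T cell receptor complex, was at 1.61 CPM at 4 h and 1.06 CPM at 0 h (log2 fold change 0.60 ± 0.31, adjusted p = 0.297), and both genes fell at 24 h (Lck -1.35 ± 0.24, adjusted p = 0.00055, Cd3g -1.19 ± 0.34, adjusted p = 0.013). Their part in the Tagap1 values was not tested. Tagap, its close relative, moved with it in total RNA. The Tagap estimates may hold reads of Tagap1 (next paragraph), so the tests of Tagap may not be independent of the choice of Tagap1. Tagap had 14.3, 11.1 and 13.8 CPM at 4 h, against 8.32, 6.24 and 6.97 CPM at 0 h, and rose with a log2 fold change of 0.87 ± 0.13 (adjusted p = 0.00137). It stayed higher at 24 h (0.79 ± 0.13, adjusted p = 0.00022) and 48 h (0.87 ± 0.13, adjusted p = 6.71e-05).

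Whether reads were shared out between Tagap and Tagap1 is uncertain, because total RNA was quantified by estimation over transcripts and the genes are similar in sequence. In the time series Tagap had 0.589 to 0.764 counts per count of Tagap1. In TT-seq, counted gene by gene, the same ratio was 0.00685 to 0.056, with 5, 19 and 12 counts of Tagap after auxin and 1, 7 and 6 in untreated cells, too few to be tested. The nascent gain of Tagap1 was counted nearly without Tagap, whereas its total RNA values and those of Tagap may hold part of each other.

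Without auxin, 4 of the 5 genes overlapped in level between subline 3 and parental cells, and Clec4d did not. In 2 libraries each, Cyb5d2 had 6.35 and 6.92 CPM in subline 3, 6.60 and 6.66 CPM in the YY1-AID subline, and 4.88 and 6.56 CPM in parental cells. Unc119b had 32.2 and 34.4 CPM in subline 3, 26.6 and 32.2 CPM in the YY1-AID subline, and 28.8 and 35.7 CPM in parental cells. For both genes the ranges of the lines overlapped or nearly met.

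Tagap1 had 9.99 and 9.53 CPM in subline 3, 7.97 and 8.89 CPM in the YY1-AID subline, and 8.96 and 10.8 CPM in parental cells. Tyw3 had 8.41 and 6.99 CPM in subline 3, 6.75 and 9.95 CPM in the YY1-AID subline, and 9.10 and 5.87 CPM in parental cells. Clec4d had 20.3 and 16.4 CPM in subline 3, 13.7 and 10.6 CPM in the YY1-AID subline, and 13.0 and 8.26 CPM in parental cells. Clec4d in subline 3 was above both other lines without overlap, as for 14.2% of tested genes against the YY1-AID subline and 14.1% against parental cells. Tagap1 in subline 3 also lay above the YY1-AID subline without overlap. In the YY1-AID subline, without overlap, Tagap1 lay just below parental cells and Cyb5d2 just above them. The share of all genes separated in that comparison is not given here, so nothing is read from these separations of 2 libraries each.

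**Figure D4:**
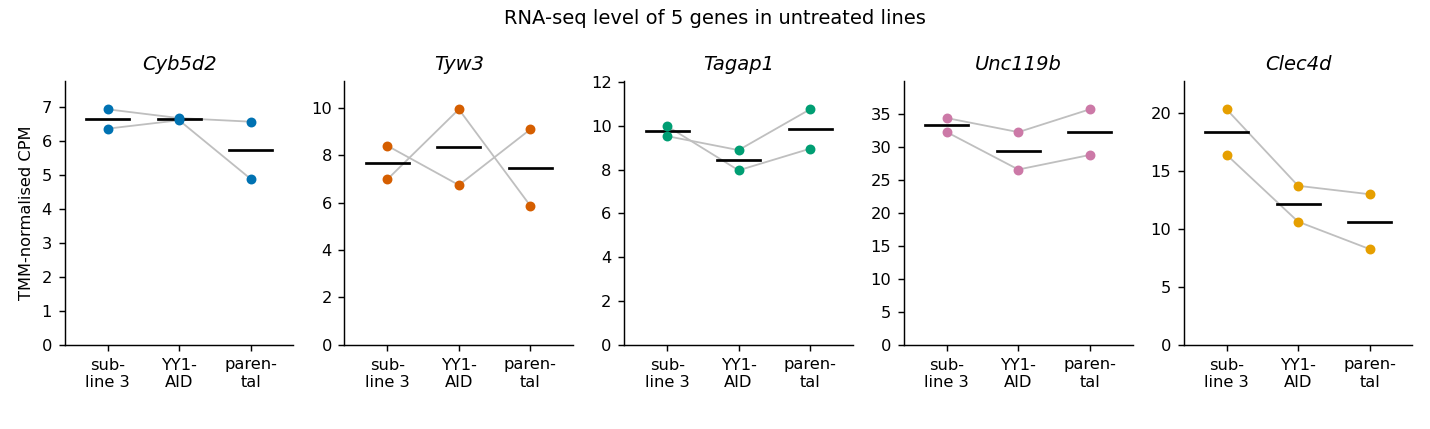
RNA-seq level (TMM-normalised CPM, linear axis from 0) of the 5 genes in untreated subline 3, the YY1-AID subline and parental cells, with points for the 2 libraries of each line, grey lines joining libraries of the same replicate number and bars for the mean. The Clec4d values of subline 3 (16.4 and 20.3 CPM) lie above those of the other lines, and the other genes overlap between subline 3 and parental cells.

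In the tests between lines, which played no part in the choice, none of the 5 genes passed. For the YY1-AID subline against parental cells, where 0% of genes passed in either direction (557 at an unadjusted p under 0.05), log2 fold changes lay between -0.23 ± 0.21 for Tagap1 and 0.21 ± 0.25 for Cyb5d2 (each adjusted p = 1, edgeR). For subline 3 against parental cells, again with 0% passed (534 unadjusted), Clec4d had the largest estimate of the 5 at 0.79 ± 0.30 (adjusted p = 0.98), and without the second parental library it was 0.50. Against the YY1-AID subline, where 0.0826% of genes passed as higher and 0% as lower, it was 0.59 ± 0.30 (adjusted p = 1).

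In this table libraries of the same replicate number deviated together (correlations 0.628 to 0.738), which is treated as a visible batch. Within the numbers, Clec4d in subline 3 exceeded parental cells by 0.64 and 0.98 and the YY1-AID subline by 0.56 and 0.62 on the log2 scale. With the number as a block the difference passed against parental cells (0.81 ± 0.15, adjusted p = 0.0161) and against the YY1-AID subline (0.60 ± 0.15, adjusted p = 0.0467), in fits where 4.20% and 4.43% of genes passed as higher. The other 4 genes did not pass with the block either. Spi1, nearly all of the myeloid sum in the time series, is not listed for the untreated lines, so the sums are not comparable. The other 9 myeloid markers summed to 0.561 to 0.749 CPM in subline 3, 0.0251 to 0.464 in the YY1-AID subline and 0.0549 to 0.189 in parental cells. In each line 5 of them were at 0. Lyz2 had 17 and 23 counts in subline 3 and 0 in the other lines. The part of these markers in the Clec4d difference was not tested.

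Of the 20 nearest annotated genes, 2 on each side, 10 were tested in total RNA and 9 in nascent RNA, and 0 rose in either, where 3.14% and 2.11% of all genes did, so the count is near the background. In total RNA 2 of the 10 fell, against 4.14% of all genes (median log2 fold change of the 10 -0.19, against 0.01 for all genes tested). They were Ankfy1 beside Cyb5d2 (-0.39 ± 0.09, adjusted p = 0.0161) and Rnaset2b beside Tagap1 (-0.40 ± 0.10, adjusted p = 0.0289). Rnaset2b had 0 counts in every library of the untreated lines, against 21.3 CPM on average at 0 h in the time series, and the reason was not tested. In nascent RNA 2 of the 9 fell, against 7.09% of all genes (median -0.26, against 0.02). They were Ankfy1 (-0.46 ± 0.09, adjusted p = 0.0141) and Cryz beside Tyw3 (-0.49 ± 0.12, adjusted p = 0.0396). Nothing is read from counts this small. With spike-in library sizes and no block both nascent calls were lost, as 0 genes passed as lower. With the replicate number as a block, which pairs the TT-seq libraries, 1 neighbour rose and 4 fell, in a fit where 22.7% of genes passed as higher and 25.3% as lower. The neighbour that rose was Mlec beside Unc119b, by 0.10 ± 0.04 (adjusted p = 0.0212), and Rnaset2b and Zzef1 were added to those that fell.

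Cyb5d2 and Zzef1, a large zinc finger and EF-hand protein gene, start back to back, and their promoter windows share 114 bases on opposite strands. The extended match of the Cyb5d2 window lies in the shared stretch, on the strand of Zzef1 at bases -190 to -180 from its start. Zzef1 averaged 114 ± 6.43 CPM in nascent RNA after auxin and 136 ± 8.37 CPM in untreated cells (SD, n = 3 each), without overlap (log2 fold change -0.26 ± 0.08, adjusted p = 0.103, and adjusted p = 4.43e-09 with the replicate block). Its total RNA was at 72.2 ± 5.05 CPM at 4 h and 77.9 ± 1.96 CPM at 0 h (adjusted p = 0.402). So at 1 shared start region nascent Cyb5d2 was 3.20-fold higher after auxin while nascent Zzef1 was not higher.

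Tyw3 and Cryz, which encodes a quinone oxidoreductase, form another divergent pair, and the Tyw3 window shares 198 bases with 1 of the 2 Cryz windows. The AANATGGC match of Tyw3 lies at bases -106 to -99 of a Cryz window, on the strand opposite to Cryz. Cryz fell in nascent RNA with TMM scaling but not with spike-in library sizes without a block, while its total RNA at 4 h was 18.7 ± 1.51 CPM, against 18.3 ± 0.87 CPM at 0 h (log2 fold change 0.03 ± 0.10, adjusted p = 0.891). At 24 h its total RNA was 14.7 ± 1.68 CPM.

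**Figure D5:**
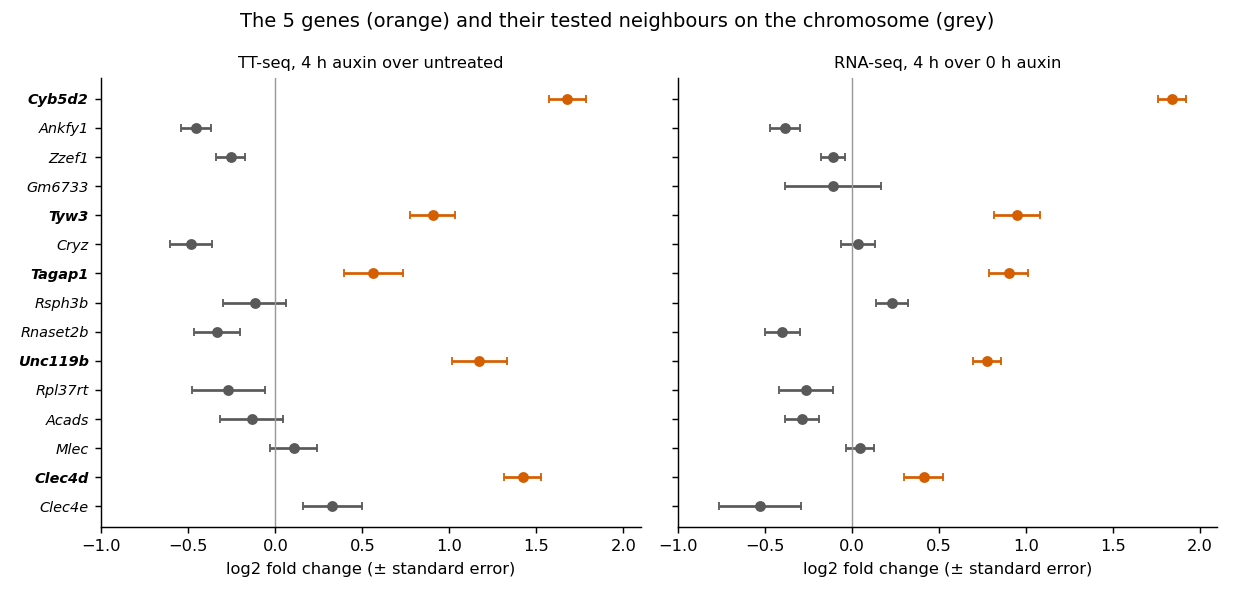
Log2 fold changes (with standard errors) of the 5 genes in orange and of their tested neighbours in grey, in TT-seq after 4 h of auxin over untreated cells (left) and in RNA-seq at 4 h over 0 h (right), with each neighbour listed below its gene. Zzef1 (-0.26) and Cryz (-0.49) lie below 0 in TT-seq beside Cyb5d2 (1.68) and Tyw3 (0.90), and Clec4e lies on different sides of 0 in the 2 assays.

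At later times 2 of the 10 tested neighbours rose and 4 fell both at 24 h and at 48 h. Of all genes 21.5% rose and 21.5% fell at 24 h, and 24.9% and 24.6% at 48 h, so the count that rose was near the background. Clec4e, the receptor that pairs with Clec4d and lies next to it, had 2.96 ± 0.55 CPM at 4 h and 4.26 ± 0.54 CPM at 0 h (adjusted p = 0.209). It rose at 24 h to 8.54 ± 2.11 CPM (SD, n = 3), a log2 fold change of 1.00 ± 0.22 against 0 h (adjusted p = 0.00276). Its nascent value was 0.33 ± 0.17 (adjusted p = 0.294), against 1.42 for Clec4d. Rsph3b beside Tagap1, a radial spoke gene of cilia, was the other neighbour that rose (0.92 ± 0.09 at 24 h, adjusted p = 4.77e-06). Acads beside Unc119b, an acyl-CoA dehydrogenase, fell by 0.72 at 24 h (adjusted p = 7.1e-05).

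The counts that follow, for other genes of each member's pathway or family, stand against 21.5% of all genes higher and 21.5% lower at 24 h, 24.9% and 24.6% at 48 h, and 22.7% and 25.3% in nascent RNA with the replicate block. Nothing particular to a list is read from them. Of the 5 other wybutosine genes, 0 passed at 4 h in total RNA (median log2 fold change 0.20, against 0.01 for all genes) and 0 in nascent RNA (median 0.22, against 0.02). At 24 h 2 of the 5 rose, against 21.5% of all genes, namely Tyw5, a hydroxylase of the base (0.59 ± 0.11, adjusted p = 0.00065), and Trmt12, which acts in the step before Tyw3 (0.45 ± 0.09, adjusted p = 0.000884). With the replicate block 3 of the 5 rose in nascent RNA, against 22.7% of all genes (Trmt5 0.21, Trmt12 0.31 and Lcmt2 0.24).

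Of 7 tested genes that handle lipidated cargo with Unc119b, 0 passed at 4 h in either assay, and 4 rose in nascent RNA with the replicate block, against 22.7% of all genes (Arl2, Arl3, Rp2 and Arl13b, by 0.28 to 0.41). Unc119, the paralogue of Unc119b, had 41.2, 45.4 and 43.4 CPM at 4 h, and 46.5, 47.1 and 45.4 CPM at 0 h. It was lower at 24 h (-0.23 ± 0.06, adjusted p = 0.009), when Unc119b was 2.49-fold above 0 h. At 24 h, when 21.5% of all genes rose, the GTPase Arl2 (0.22), the Arl3 GTPase-activating protein Rp2 (0.41) and the prenyl-binding Pde6d (0.41) rose. Arl2bp fell by 0.38 at 24 h, along with Unc119.

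Of 12 other C-type lectin receptor and signalling genes, 4 were tested in each assay, not all of them the same, and 0 passed at 4 h in either. At 24 h 2 of the 4 rose, against 21.5% of all genes, Clec4e and the signalling adaptor Card9, which was at 1.04 CPM on average against 0.354 at 0 h (log2 fold change 1.54 ± 0.51, adjusted p = 0.0252). Bcl10 and Malt1, partners of Card9, rose by 0.16 and 0.13 in nascent RNA with the replicate block, where 22.7% of all genes rose. In that fit Clec4e (0.31) and Fcer1g (-0.34) did not pass, and Card9 was not tested.

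Among 8 other genes of cytochrome b5, its reductases and MAPR proteins, 0 rose and 1 fell at 4 h, the haem-binding Pgrmc1 (-0.24 ± 0.07, adjusted p = 0.0479). At 24 h 0 rose and 4 fell, against 21.5% of all genes each way. In nascent RNA 0 passed, and with the replicate block 2 rose (Cyb5a by 0.34 and Cyb5b by 0.11) and 2 fell (Pgrmc1 and Pgrmc2), near the 22.7% and 25.3% of all genes. At 48 h 1 rose and 6 fell, against 24.9% and 24.6% of all genes, with a median log2 fold change of -0.39 against 0.03 for all genes.

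The 5 genes' courses were alike to different degrees over the 12 time-series libraries. Pearson correlations of log2 CPM ran from 0.625 between Tagap1 and Clec4d to 0.952 between Cyb5d2 and Tyw3, with 0.949 between Tyw3 and Tagap1 and 0.916 between Unc119b and Clec4d. These libraries form 4 times of 3, so the coefficients mainly compare the pattern of 4 group means. Among genes averaging 3 or more in log2 CPM, those most like Cyb5d2 were Osbpl11, a lipid transfer protein (0.981), the zinc finger factor Thap1 (0.98) and Mlycd, malonyl-CoA decarboxylase (0.977). Thap1 had log2 fold changes of 1.39 at 4 h, 1.35 at 24 h and 1.32 at 48 h, against 1.84, 2.03 and 2.16 for Cyb5d2.

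The genes most like Tyw3 were the transcriptional co-regulator Hcfc1 (0.955), the ubiquitin ligase Rnf220 (0.954) and Mlycd (0.951). Those most like Tagap1 were the chromatin remodeller Ino80 (0.963), Cpsf2 of the cleavage and polyadenylation complex (0.962) and Sbno2 (0.954). Hcfc1 gained 0.26 and Ino80 0.59 at 4 h.

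Unc119b was most like Thnsl1 (0.989), the deubiquitinase Yod1 (0.983) and the small GTPase Rab1a (0.98). Clec4d was most like Tmem237, a cilium transition zone protein (0.994), the survival factor Bcl2l2 (0.988) and Txndc15 (0.985). These 3 had 4 h values of 0.14, 0.11 and 0.28 and 24 h values of 0.81, 0.81 and 1.17. The likeness is what they were picked for. A correlation above 0.9 was reached by 33 genes for Tagap1, 38 for Tyw3, 73 for Cyb5d2, 260 for Unc119b and 442 for Clec4d.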

How the data were processed

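The authors deposited an estimated count for each gene in RNA-seq, made with Salmon 0.13.1, per the submitters' processing notes, and these were rounded to whole numbers. For TT-seq the authors deposited a count for each mouse gene and each gene of a Drosophila spike-in (500 ng of RNA per 100 µg), with Trim Galore 0.6.10, STAR and SAMtools named in the submitters' processing notes. The sources used here do not say how strand and introns were handled in counting. Lines naming no gene were left out (reads without a feature were 17.2% to 22.2% of a TT-seq library, ambiguous reads 0.391% to 0.529%).

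Each table was fitted with edgeR 4.0.16 in R 4.3.3 (TMM, filterByExpr by group, quasi-likelihood F-test, all groups in 1 fit, no replicate term), with Benjamini-Hochberg adjustment over the genes tested and a threshold of 0.05. Log2 CPM used a prior count of 2. The procedure was tested on simulated data with 200 changed genes. Replicate numbers were checked by correlating deviations from group means: same-numbered TT-seq libraries correlated at 0.402 to 0.657 (others at most -0.092), so the numbers pair them, from the data and not the labels.

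Members, gene lists and tests were chosen with earlier results of these data known. The genes named are the 5, the 2 nearest annotated genes on each side (by order in the RefSeq table of GRCm38.p6), up to 4 passing members of each list by p (with all members where a count is small), and the 3 genes most correlated with each member, leaving out predicted genes. Tagap and Unc119 are named as relatives and Yy1 as the target. One gene list is not reported here. All 5 members matched a RefSeq promoter window. Peak and loop lists, in mm9, were not used here. Alternatives were DESeq2 1.42.0, no filter, only the groups compared, spike-in library sizes, the replicate block and leaving out each library.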

Additional observations from a re-analysis of the deposited data

How the results depend on the processing

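For the 5 genes, no alternative changed the direction of an auxin comparison, and in 48 h against 24 h none of 10 alternatives brought a gene past the threshold. Without 1 library, the 4 h RNA-seq log2 fold changes ran from 1.81 to 1.84 for Cyb5d2, 0.83 to 1.02 for Tyw3, 0.74 to 0.97 for Tagap1, 0.70 to 0.79 for Unc119b and 0.31 to 0.48 for Clec4d. With spike-in library sizes the nascent values were 1.61, 0.83, 0.48, 1.13 and 1.42 for Cyb5d2, Tyw3, Tagap1, Unc119b and Clec4d. In the untreated lines, Clec4d passed with the replicate block in subline 3 against parental cells (0.81) and against the YY1-AID subline (0.60). Near-zero estimates changed sign there: Cyb5d2 in subline 3 against the YY1-AID subline was -0.0072 with DESeq2 and -0.0025 with the block. Without 1 library, subline 3 against parental ran from 0.50 to 1.15 for Clec4d, -0.24 to 0.39 for Tyw3, -0.14 to 0.12 for Tagap1 and -0.10 to 0.21 for Unc119b. Subline 3 against the YY1-AID subline ran from -0.058 to 0.094 for Cyb5d2 and -0.37 to 0.19 for Tyw3, and the YY1-AID subline against parental from -0.10 to 0.56 for Clec4d, -0.15 to 0.51 for Tyw3 and -0.28 to 0.030 for Unc119b.

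Counts of passing genes moved more, and the cause was not tested. DESeq2 called 1050 genes lower at 4 h, 781 higher and 690 lower at 48 h against 24 h, 61 and 133 in the YY1-AID subline against parental, 98 and 56 in subline 3 against parental, and 167 and 41 in subline 3 against the YY1-AID subline. Fitting the compared groups alone gave 161 lower at 48 h against 24 h. Without a filter the lines gave 7 and 27, 1 higher, and 28 and 2 in the same order. The replicate block gave 177 and 261, 457 and 223, and 483 and 190 in the lines, and 2541 and 2833 in TT-seq. Spike-in library sizes gave 1 and 0 in TT-seq without the block, and 1118 and 2413 with it. Without 1 library, 206 to 248 genes were higher and 397 to 483 lower at 4 h, 213 to 352 higher and 164 to 375 lower at 48 h against 24 h, 54 to 172 higher and 375 to 701 lower in TT-seq, and 0 to 1 higher in subline 3 against the YY1-AID subline. Replicate numbers in the time series did not pair libraries (correlations -0.069 to 0.103). Peaks and loop anchors at the genes' starts were not run, since no annotation of their build was used here. Nascent Tagap1 rested on 135 to 339 counts a library.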
